A study of Mus musculus with 5 samples.

Results

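The Fc gamma receptor genes Fcgr1, Fcgr2b, Fcgr3, and Fcgr4 and the gene of their shared signaling chain, Fcer1g, were examined in scRNA-Seq data of MC38 tumors, the 5 genes being chosen by name out of 33696 gene features. Their RNA was counted by cell class and by treatment, and set beside the signal of 9 isotype control antibodies on the same barcodes. MC38 is a transplantable mouse colon carcinoma line. Male wild-type C57BL/6J mice aged 8 to 10 weeks received MC38 cells under the skin and, on days 3, 6, and 9, either isotype antibodies or immune checkpoint inhibition (CPI) with anti-CTLA4 and anti–PD-1. On day 12 they were given vehicle or 20 mg/kg of ABT-317, a JAK1-selective inhibitor, and tumors were taken on day 15. The paper's sequencing methods count the day of harvest from implantation. Its figure on MC38 tumors counts days from enrollment into treatment, which followed once a minimal tumor burden was reached. The 4 treatments were isotype, CPI, isotype + ABT-317, and CPI + ABT-317. Live CD45+ and CD45- cells were sorted and mixed in equal numbers, so the share of immune cells in the data is set by the sort. All treatments were run together in each of 2 droplet reactions. In each reaction 1 hashtag antibody marked each treatment, a different one in reaction 1 than in reaction 2, and the deposited key ties no hashtag to a single mouse. Each treatment drew on several mice.

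Fc gamma receptors bind the constant part of IgG and let leukocytes react to cells and particles that carry antibody. FcγRI, FcγRIII, and FcγRIV, encoded by Fcgr1, Fcgr3, and Fcgr4, activate the cell through the γ chain that Fcer1g encodes, and FcγRIIb, encoded by Fcgr2b, inhibits it. FcγRI has high affinity for mouse IgG2a, and FcγRIV binds mouse IgG2a and IgG2b. In mouse tumors, macrophages with activating Fc gamma receptors are known to remove T cells coated with some anti-CTLA4 antibodies. The same receptors can hold staining antibodies by their constant part, which is one use of isotype control antibodies in a panel.

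Fcgr2b (chr1:170958617-170976547, minus strand), Fcgr4 (chr1:171018920-171029761, plus strand), Fcgr3 (chr1:171051174-171064935, minus strand), and Fcer1g (chr1:171229572-171234365, minus strand) lie within 276 kb of chromosome 1 in GRCm38, and Fcgr1 lies on chromosome 3 (chr3:96282909-96293969, minus strand). Fcgr2b and Fcgr3 have closely similar exons for their extracellular domains, so the division of UMIs between them is less certain, and 3 of the 5 genes overlap another annotated gene (Gm38204, on the other strand, at Fcgr2b, Mir6546 at Fcgr3, and Gm26110 at Fcgr4). The RefSeq promoters of Fcgr1 and Fcgr4, 2 activating receptors whose levels differed between groups of cells, are shown, a choice made after their values were seen. In the main clustering Fcgr1 passed the test in no comparison of treatments. Each run holds the 250 bases before the RefSeq start site, 5′ to 3′ along the gene's strand (GRCm38.p6).
Fcgr1 (chr3:96293970-96294219, minus strand): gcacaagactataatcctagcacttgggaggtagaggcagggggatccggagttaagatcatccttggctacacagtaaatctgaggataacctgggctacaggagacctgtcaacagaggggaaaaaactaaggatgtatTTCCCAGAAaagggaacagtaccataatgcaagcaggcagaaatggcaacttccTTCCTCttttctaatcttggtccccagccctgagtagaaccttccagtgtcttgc
Fcgr4 (chr1:171018676-171018925, plus strand): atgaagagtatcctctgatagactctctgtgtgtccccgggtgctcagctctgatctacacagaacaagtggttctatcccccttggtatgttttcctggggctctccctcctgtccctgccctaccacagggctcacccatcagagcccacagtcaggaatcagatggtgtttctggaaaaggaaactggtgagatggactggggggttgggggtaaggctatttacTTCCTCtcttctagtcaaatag
Capitals mark matches to 2 motifs searched on both strands, TTCNNNGAA, the core of interferon-gamma activated sites bound by STAT factors downstream of JAK kinases, and GAGGAA, a core bound by ETS factors such as PU.1, which is marked where it reads TTCCTC on the printed strand. The matches do not overlap. TTCNNNGAA was found 109 bases before the start of Fcgr1 and in no other of the 5 promoters, and 8.13% of 27025 promoters of the same length held it. GAGGAA was found 55 bases before the start of Fcgr1, 22 before that of Fcgr4, and 6 before that of Fcgr3, and in 25.9% of promoters. A match is a stretch of letters and was not tested as a binding site.

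The panel held 9 isotype control antibodies, which have no known target in the mouse, beside 113 other antibodies and 10 hashtags. MOPC-21, MOPC-173, and MPC-11 are mouse IgG1, IgG2a, and IgG2b, the RTK clones and G0114F7 are rat IgG of several subclasses, and HTK888 is Armenian hamster IgG. Each antibody is counted through an oligonucleotide of 15 bases, given here in full because these tags are what stands for antibody held on a barcode.
MOPC-21: GCCGGACGACATTAA
MOPC-173: CTCCTACCTAAACTG
MPC-11: ATATGTATCACGCGA
RTK4530: GATTCTTGACGACCT
RTK2071: ATCAGATGCCCTCAT
G0114F7: GGGAGCGATTCAACT
RTK2758: AAGTCAGGTTCGTTT
RTK4174: TCCAGGCTAGTCATT
HTK888: CCTGTCATTAAGACT
No antibody to an Fc gamma receptor was in the panel, so receptor protein was not measured.

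Reactions 1 and 2 held 37774 and 27582 barcodes and 435031691 and 377184807 gene UMIs (unique molecular identifiers, each marking 1 captured molecule). Barcodes with at least 200 genes and under 10% mitochondrial UMIs were kept, 33762 and 23332 of them, with medians of 8781.5 and 9998 UMIs, and 1416 barcode sequences occurred in both reactions. Clusters were made with all Fc receptor genes left out and were named from marker genes. Of 57094 barcodes, 11497 were macrophage-like (all 10 markers, among them C1qa, C1qb, Apoe, and Trem2, were at least 1.5-fold above the other barcodes), 1289 were T-like (9 of 9 markers), 2849 fibroblast-like (8 of 8), and 239 dendritic-like (17 of 17). The remaining clusters stayed unnamed. One barcode can hold more than 1 cell: 22.0% of macrophage-like, 13.0% of T-like, and 34.7% of fibroblast-like barcodes carried several treatment hashtags.

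Most RNA of all 5 genes was in macrophage-like barcodes. These were 20.1% of barcodes and held 6.26% of all gene UMIs, but 59.8% of Fcgr1, 55.2% of Fcgr2b, 55.8% of Fcgr3, 58.0% of Fcgr4, and 60.2% of Fcer1g UMIs. A further 18.2% to 20.8% of each gene's UMIs lay in 1 unnamed cluster of 5272 barcodes with a median of 25858.5 UMIs, which held 18.6% of all gene UMIs, so their share there was close to that of all genes. In that cluster 2476 of 3031 barcodes of reaction 1 and 1690 of 2241 of reaction 2 carried several hashtags. Many of them may thus hold more than 1 cell. Fcgr1 stood at 194 and 226 CPM (UMIs per 1000000 gene UMIs of the class) in macrophage-like barcodes of reactions 1 and 2, and at 12.6 CPM in T-like barcodes of both reactions together (95% interval 7.83 to 19.3). Fcgr2b stood at 359 and 435 CPM in macrophage-like and 39.1 CPM (30.2 to 49.9) in T-like barcodes. For Fcgr3 the macrophage-like levels were 243 and 305 CPM and the T-like level 27.7 CPM (20.3 to 36.9), and for Fcgr4 they were 145 and 153 CPM against 11.4 CPM (6.89 to 17.9). Fcer1g, whose product also serves the high-affinity IgE receptor and several activating receptors of NK cells, stood at 5689.7 and 6478 CPM against 519 CPM (485 to 555). The macrophage-like level was above the T-like level in both reactions for every gene, and reaction 2 was above reaction 1 in macrophage-like barcodes for every gene. All intervals here are exact Poisson intervals for counting error only.

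Dendritic-like and fibroblast-like barcodes lay below macrophage-like barcodes for every gene. Dendritic-like barcodes of both reactions held 44.6 CPM of Fcgr1, 107 of Fcgr2b, 31.3 of Fcgr3, 28.9 of Fcgr4, and 1220.2 of Fcer1g. In fibroblast-like barcodes the levels were 30.2, 68.5, 45.2, 28.5, and 1032 CPM in the same order of genes. They were 5.13, 16.7, 12.7, 7.98, and 232 CPM when only the 1551 fibroblast-like barcodes with exactly 1 hashtag were taken, below the 11.3, 36.6, 23.5, 10.5, and 509.8 CPM of T-like barcodes with 1 hashtag. In the fibroblast-like class of a finer clustering (Leiden resolution 1.0) they were 5.12, 11.2, 8.76, 5.42, and 179 CPM, so the values of this class depended on which barcodes were counted in it. In a cluster of 8854 barcodes led by H19, a fetal growth transcript, with Ptprc (the CD45 gene) at 3.61 CPM, each receptor gene was at 2.91 CPM or less and Fcer1g at 34.3 CPM.

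**Figure D1:**
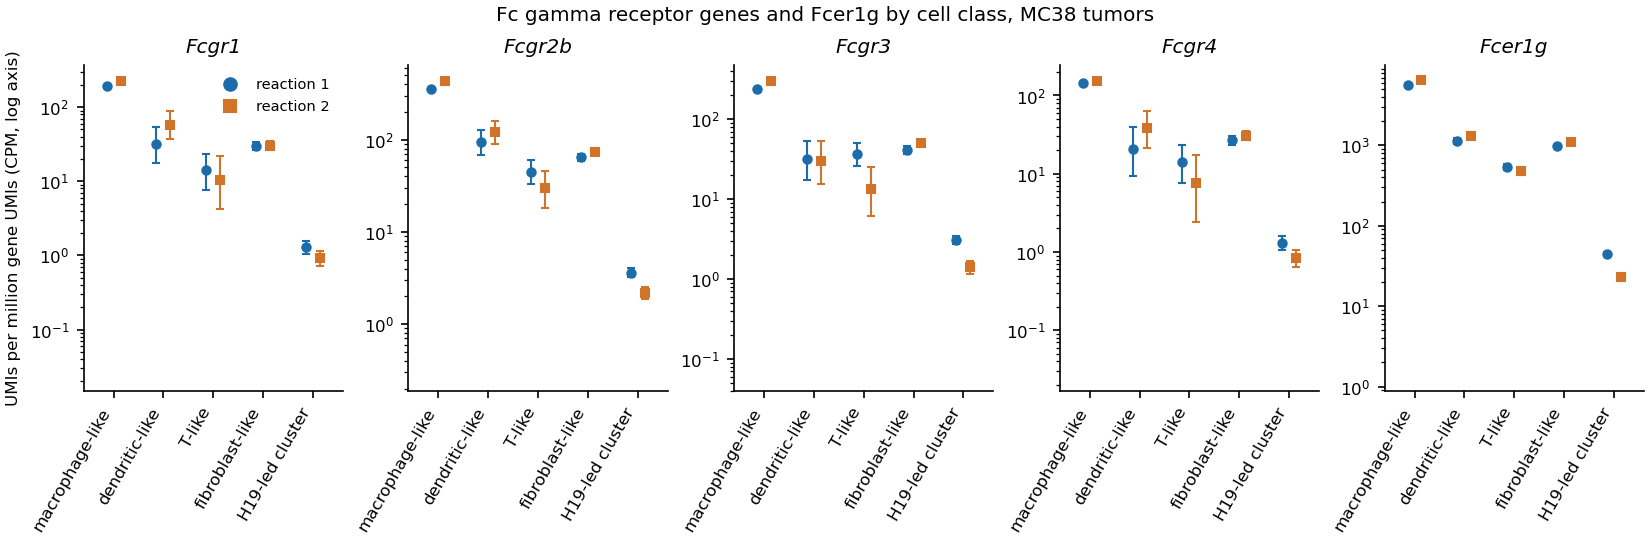
Level of each gene in CPM (log axis, drawn separately for each gene) in 4 named classes and the H19-led cluster, for reactions 1 (circles) and 2 (squares), with exact Poisson 95% intervals. In each panel both reactions place the macrophage-like class highest, at 194 and 226 CPM for Fcgr1 and 5689.7 and 6478 CPM for Fcer1g, and the H19-led cluster lowest.

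Shares of barcodes were compared after barcodes of at least 1000 UMIs were thinned to 1000 UMIs, because depth differed between classes. Shallower barcodes were left out of the thinned shares, 525 of 1289 in the T-like and 52 of 11497 in the macrophage-like class. Thinned and unthinned shares of T-like barcodes thus rest on different sets of barcodes. In thinned macrophage-like barcodes, 18.0% had a UMI of Fcgr1, 30.7% of Fcgr2b, 21.8% of Fcgr3, 13.2% of Fcgr4, and 98.6% of Fcer1g. Without thinning, at a median of 3747 UMIs, the shares were 50.1%, 66.3%, 57.6%, 37.6%, and 99.8%. In T-like barcodes (median 1077 UMIs), a class that should largely lack these receptors, the thinned shares were 1.83%, 3.40%, 2.75%, 1.18%, and 31.3%, and the unthinned shares 1.63%, 4.81%, 3.49%, 1.47%, and 34.3%. In the H19-led cluster (median 16693 UMIs) the thinned shares were 0.361% or less for the receptors and 3.64% for Fcer1g, and unthinned they were 1.77%, 4.43%, 3.67%, 1.77%, and 34.1%. Of 11445 thinned macrophage-like barcodes, 40.0% had a UMI of none of the 4 receptors, 40.1% of exactly 1, and 19.9% of 2 or more. At 1000 UMIs a receptor that is present is often missed, so the first of these is a share of barcodes without a detected UMI and not of cells without a receptor.

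Among the 4 clusters richest in Ptprc, a second round of clustering, added after the data were seen, gave 9 sub-clusters, in which the receptors did not share one order of levels. Fcgr4 was highest in cells led by Dnase1l3, Cxcl9, and MHC class II genes such as H2-Eb1 (4058 barcodes), with 222 CPM (214 to 229), beside 237 CPM (229 to 244) of Fcgr1. Cycling cells led by histone and mitosis genes such as H2ac8 and Plk1 (3365 barcodes) had a like level of Fcgr1, 236 CPM (228 to 245), but 104 CPM (98.3 to 109.8) of Fcgr4. Cells led by Cxcl1, Areg, and Il1a, genes of a chemokine, a growth factor, and a cytokine (3922 barcodes), had 183 CPM (177 to 189) of Fcgr1 and 124 CPM (119 to 129) of Fcgr4. Their Fcgr2b, at 481 CPM (471 to 491), was above that of the Dnase1l3-led cells, at 391 CPM (381 to 400), and of the cycling cells, at 280 CPM (271 to 289).

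A further group of 518 barcodes, led by Lyz1, Saa3, and F7, had less Fcgr1 and Fcgr4 than any of the Dnase1l3-led, Cxcl1-led, and cycling cells. It had 68.2 CPM (54.1 to 84.7) of Fcgr1 and 75.7 CPM (60.9 to 93.1) of Fcgr4, but 467 CPM (429 to 508) of Fcgr2b and 315 CPM (284 to 348) of Fcgr3. It was left unnamed, since no marker of the list with the highest mean fold in it, that of monocytes, was among its top 10 genes. The 6 monocyte markers went both ways against the Dnase1l3-led cells. Ly6c2 (79.9 against 18.9 CPM), Hp (43.8 against 1.34), Plac8 (32 against 23.8), and Chil3 (19.4 against 0.976) were higher, and Ccr2 (50.5 against 72.3) and Ms4a4c (21.9 against 127) were lower. The macrophage markers went both ways as well. Apoe (13278 CPM), Trem2 (539 CPM), Cd68 (481 CPM), Mrc1 (388 CPM), and Adgre1 (218 CPM) were above the Dnase1l3-led cells. C1qb (2999.8 CPM), C1qa (1673 CPM), C1qc (1507 CPM), Ms4a7 (419 CPM), and Csf1r (372 CPM) were below them. Its Fcer1g stood at 2869 CPM, against 6415 CPM in the Dnase1l3-led cells. The UMIs of the 3 activating receptors per Fcgr2b UMI were 0.990 and 0.971 in the Lyz1-led cells of reactions 1 and 2. They were 1.94 and 1.85 in Dnase1l3-led cells, 2.07 and 2.08 in cycling cells, and 1.28 and 1.23 in Cxcl1-led cells. Among these groups the order in both reactions was cycling, Dnase1l3-led, Cxcl1-led, and Lyz1-led cells. The Lyz1-led cells were not the lowest sub-cluster, since cells led by Nlrp1c-ps had 0.93 and 0.86. Cells led by Hspb1 had 1.10 and 1.14. Dendritic-like cells of this second clustering (263 barcodes) had 1.10 and 1.00, and a sub-cluster of 1299 barcodes led by Xcl1, with all 9 T cell markers raised, had at most 48.2 CPM of any of the 4 receptor genes with both reactions pooled. A sub-cluster led by Nlrp1c-ps (1706 barcodes) had 99.2 CPM of Fcgr1 and 67.8 CPM of Fcgr4 beside 362 CPM of Fcgr2b, and one led by Hspb1, a heat shock gene (593 barcodes), had 132, 89.9, and 465 CPM of the same 3 genes. Neutrophil-like cells (135 barcodes) held 1 UMI of Fcgr1, 12 of Fcgr2b, 17 of Fcgr3, and 8 of Fcgr4, too few to rank.

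**Figure D2:**
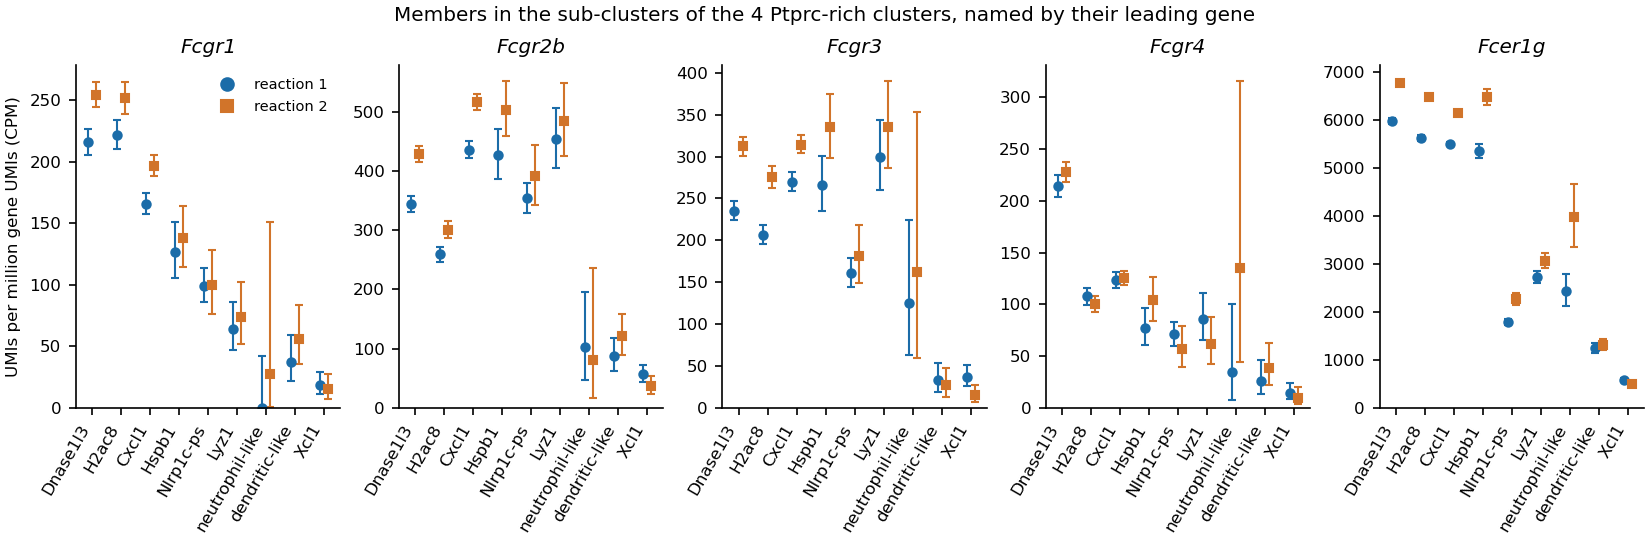
Level of each gene in CPM (linear axes from 0) in 9 sub-clusters, for reactions 1 (circles) and 2 (squares), with exact Poisson 95% intervals. Fcgr1 and Fcgr4 are low in Lyz1-led cells, at 68.2 and 75.7 CPM over both reactions, whereas Fcgr2b and Fcgr3 there, at 467 and 315 CPM, are close to the Cxcl1-led cells.

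The genes whose levels most resembled those of the members were taken from 12014 genes across 16 clusters of at least 50 barcodes in each reaction, by Pearson's r of log2(CPM + 1). These were Cd68, a lysosomal protein of macrophages (r = 0.993), Ms4a6d, and Cd72 for Fcgr1, and Nlrp3, the inflammasome sensor (r = 0.995), Ccrl2, and Ctsc for Fcgr2b. They were Lyz2, lysozyme (r = 0.991), Tlr2, and Ctsc for Fcgr3, Cd68 (r = 0.989), Cd72, and Clec5a for Fcgr4, and Cd68 (r = 0.988), Ccl3, and Cd72 for Fcer1g. The clusters come from the same 2 reactions and differ in depth, so these are descriptions.

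Treatment hashtags differed widely in the cells they marked, before any receptor was compared. The lowest hashtag counts called ran from 62 (CPI) to 202 (CPI + ABT-317) in reaction 1 and from 30 to 159 in reaction 2. When barcodes were assigned by their leading hashtag, macrophage-like barcodes fell from 3871 to 2296 for isotype in reaction 2. For CPI + ABT-317 they rose from 297 and 341 to 460 and 561. Whether wrong hashtag calls add to the differences between treatments was not tested. Macrophage-like barcodes were 34.3% and 42.7% of the barcodes with the isotype hashtag alone in reactions 1 and 2, 8.90% and 9.81% with isotype + ABT-317, 13.7% and 16.5% with CPI + ABT-317, and 1.89% and 2.24% with CPI. The CPI hashtag marked mainly fibroblast-like (41.8% and 43.0%) and T-like (23.4% and 24.3%) barcodes, and it marked 187 and 167 Lyz1-led barcodes, against 0 to 9 for any other treatment. T-like barcodes were 0.459% and 0.287% with isotype, 0.0666% and 0.0463% with isotype + ABT-317, and 0.138% and 0.241% with CPI + ABT-317. By flow cytometry, the paper found no difference in CD8+ T cells per mg of tumor between CPI and CPI + ABT-317. That is another measure than a share of barcodes, and why the hashtag groups differ so widely in T-like barcodes was not tested. As counts, the CPI groups of macrophage-like cells rested on 34 and 35 barcodes with 87400 and 99667 UMIs, against 212 to 3871 barcodes with 937684 to 16772458 UMIs in the others. Of these CPI barcodes 19 of 34 and 16 of 35 were Cxcl1-led, as were 140 and 142 of the 297 and 341 CPI + ABT-317 barcodes, whereas cycling cells were the largest share of isotype + ABT-317 barcodes (110 of 267 and 80 of 212). In macrophage-like cells the 10 macrophage markers summed to 17506 and 16926 CPM with the CPI hashtag, and to 18855 to 30872 CPM in the other groups. The 6 monocyte markers summed to 881 and 401 CPM with CPI and to 146 to 290 CPM elsewhere, and the 9 T cell markers to 114 and 151 CPM with CPI and 3.20 to 16.7 CPM elsewhere. The part of these differences in the results that follow was not tested, and a different mix of macrophage types and a change within cells cannot be told apart in summed counts.

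Within macrophage-like cells, Fcgr4, the IgG2a- and IgG2b-binding activating receptor, was higher with CPI + ABT-317 than with any other treatment. Its levels in reactions 1 and 2 were 136 and 142 CPM with isotype, 139.7 and 117 CPM with isotype + ABT-317, 137 and 110.4 CPM with CPI, and 234 and 274 CPM with CPI + ABT-317. Both CPI + ABT-317 values lay above each of the other 6. How many of all genes separate in this way was not counted, here or for the genes below. The CPI values come from 12 and 11 UMIs and have intervals of 70.9 to 240 and 55.1 to 197 CPM. The first of these intervals holds the CPI + ABT-317 value of reaction 1, 234 CPM.

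CPI against isotype in mice that all received ABT-317 asked what CPI adds under the inhibitor. Fcgr4 rose 2.03-fold (log2 fold change 1.02, SE 0.15, adjusted p = 0.00151, edgeR's quasi-likelihood test with Benjamini-Hochberg adjustment over 8824 genes, 2 sums a group). Of all genes tested, 193 (2.19%) were called in this comparison, and Fcgr4 was the only one of the 5 members among them. The 2 sums of a group come from 2 reactions and carry different hashtags, but how the mice of a treatment were divided between these is not given in the sources used here. The p-values measure only the spread between these sums, which may be technical. Leaving out single sums kept its log2 fold change between 0.88 and 1.15. With the reaction as a block 608 genes (6.89%) were called, and Fcgr3 (0.40, adjusted p = 0.00176) and Fcgr2b (0.28, adjusted p = 0.0366) were among them beside Fcgr4. Fcgr3, a low-affinity activating receptor, stood at 228 and 304 CPM with isotype + ABT-317 and 300.3 and 387 CPM with CPI + ABT-317, higher in each reaction although the groups overlap. Fcgr2b stood at 309.6 and 372 CPM against 375 and 438 CPM. For Fcgr1 (246 and 249.6 against 232 and 296 CPM) and Fcer1g (5502 and 6142 against 5539.7 and 6132 CPM) the log2 differences were 0.13 (SE 0.16) and 0.04 (SE 0.16).

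Because Fcgr4 differed between sub-clusters, it was also read within them, as a description. In Dnase1l3-led cells it stood at 197 and 164 CPM with isotype + ABT-317 and at 344 and 401 CPM with CPI + ABT-317, and the intervals did not overlap (highest upper bound 259, lowest lower bound 288 CPM). In Cxcl1-led cells the values were 99.8 and 109 against 211 and 194 CPM, likewise with no overlap of intervals (152 against 161 CPM). In cycling cells they were 119.9 and 96.2 against 134 and 207 CPM, and the intervals overlapped. The CPI + ABT-317 level was the higher one in each of these 3 groups and in both reactions. These intervals hold counting error only and not the spread between mice or sums. Hspb1-led cells were left out, with 16 and 15 barcodes of isotype + ABT-317 and 13 and 20 of CPI + ABT-317. A change of cell mix within these groups was not tested.

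**Figure D3:**
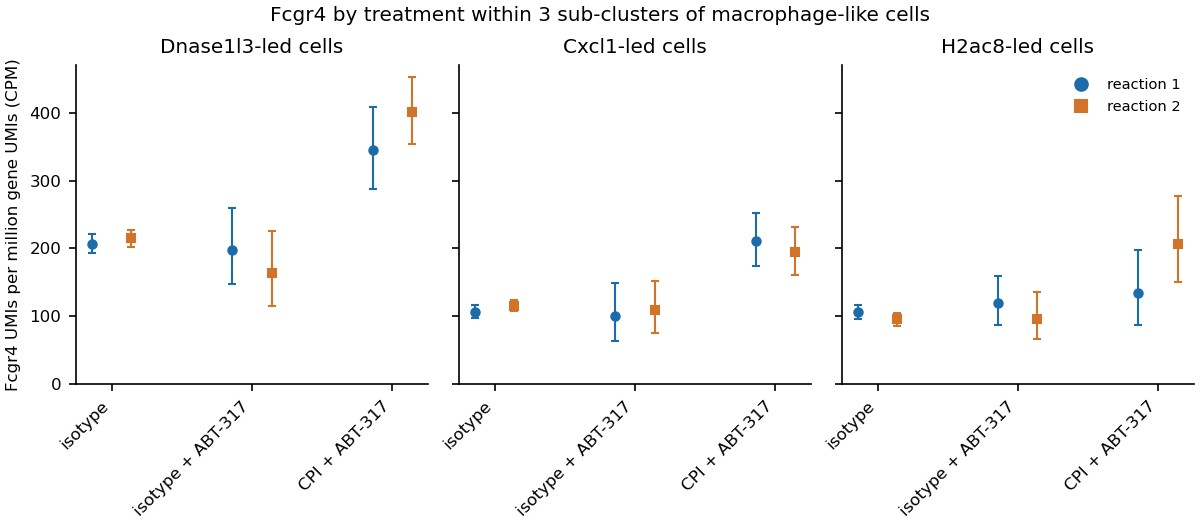
Fcgr4 in CPM (linear axis from 0) by treatment within 3 sub-clusters of macrophage-like cells, for reactions 1 (circles) and 2 (squares), with exact Poisson 95% intervals. CPI is not drawn because each of its groups held 19 barcodes or fewer. In Dnase1l3-led cells CPI + ABT-317 stands at 344 and 401 CPM, above the other 2 treatments.

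CPI + ABT-317 against CPI asked what the inhibitor adds after CPI. Fcgr4 rose (log2 fold change 1.23, SE 0.27, adjusted p = 0.0402, edgeR), the 1 member among 96 called genes (1.09%). Of these 96, 54 were higher and 42 lower, against 39 and 50 with the size factors of DESeq2 in place of TMM, where 0 members and 1.01% of all genes were called. This call was lost without reaction 1 of CPI (adjusted p = 0.203), reaction 2 of CPI (0.284), or reaction 2 of CPI + ABT-317 (0.145), while the log2 fold change stayed between 1.12 and 1.42. It was lost as well when barcodes were assigned by their leading hashtag (log2 0.84, adjusted p = 0.246) and in the finer clustering (1.25, adjusted p = 0.103). Fcer1g was at 3764 and 4686 CPM with CPI and 5539.7 and 6132 CPM with CPI + ABT-317 (log2 0.65, SE 0.17, adjusted p = 0.0942), and it was called with the reaction as a block (adjusted p = 2.44e-09, 4.13% of genes called) and by DESeq2 (adjusted p = 0.0487, 2.21% of genes called). The block fits here and below rest on the same 2 sums a group, so a smaller p from them is no added replication. Over all genes the median log2 fold change was 0.18 in this comparison, so a gene at the median lay above 0. The log2 differences of Fcgr1 (0.65, SE 0.26), Fcgr3 (0.14, SE 0.28), and Fcgr2b (0.02, SE 0.26) did not pass the threshold.

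CPI against isotype without ABT-317 gave 397 called genes (4.50%, 203 higher and 194 lower, or 328 and 149 by DESeq2), among them 1 member, Fcer1g, which fell by 0.75 on the log2 scale (SE 0.17, adjusted p = 0.0205, edgeR). Its levels were 5859.6 and 6655 CPM with isotype and 3764 and 4686 CPM with CPI, and the groups did not overlap. The call was lost without reaction 2 of isotype (adjusted p = 0.103) or reaction 1 of CPI (0.137), by leading hashtag (0.222), and in the finer clustering (0.0972), while the log2 fold change stayed between -1.02 and -0.64 over left-out sums and was -0.59 and -0.67 in the other 2 fits. With the reaction as a block it was called among 713 genes (8.08%, adjusted p = 1.30e-11). The median over all genes was -0.19. Fcgr1 stood at 191 and 223 CPM with isotype and 195 and 191 CPM with CPI, Fcgr2b at 348 and 434 against 320 and 582 CPM, and Fcgr3 at 229 and 294 against 286 and 421 CPM, with overlapping groups. None of these 3 or Fcgr4 passed the threshold here.

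Results with the CPI hashtag differed in a clustering that counted most Lyz1-led cells of that hashtag with the macrophage-like class. Clustering on 2000 variable genes put 257 and 214 CPI barcodes in that class, of which 177 and 163 were Lyz1-led. In the main clustering 5 and 6 of 34 and 35 were. Other CPI barcodes were added too, and the part of each was not tested. The calls with the CPI hashtag that follow may restate the low levels of the Lyz1-led cells. CPI against isotype then called 3 members, with log2 fold changes of -1.29 for Fcgr1 (adjusted p = 0.000932), -1.07 for Fcgr4 (0.00119), and -1.07 for Fcer1g (0.000631, edgeR), where 22.9% of 8626 genes were called. CPI + ABT-317 against CPI called the same 3 in the other direction, at 1.63, 1.95, and 0.97, where 14.6% of genes were called, and the interaction called them at 1.42, 2.14, and 1.13, where 6.17% were called. Fcgr2b and Fcgr3 were called in none of these. Fcgr4 in CPI + ABT-317 against isotype + ABT-317 was at 1.07, close to its value of 1.02 in the main clustering.

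In Lyz1-led cells with the CPI hashtag (187 and 167 barcodes) Fcgr1 stood at 51.8 and 60.9 CPM, Fcgr4 at 62.7 and 49.8 CPM, and Fcer1g at 2446 and 2894 CPM. Fcgr2b, at 494 and 496 CPM, and Fcgr3, at 314 and 349 CPM, lay above the macrophage-like levels with isotype. Adding the Lyz1-led cells themselves to the main class, chosen after their levels were seen, took the CPI groups from 34 and 35 to 216 and 196 barcodes and the isotype groups from 7684 to 7685 in all. The log2 fold changes of CPI against isotype were then -1.34 for Fcgr1, -1.02 for Fcgr4, and -1.09 for Fcer1g. They restate the low levels of these cells and are given as a description, with no test.

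**Figure D4:**
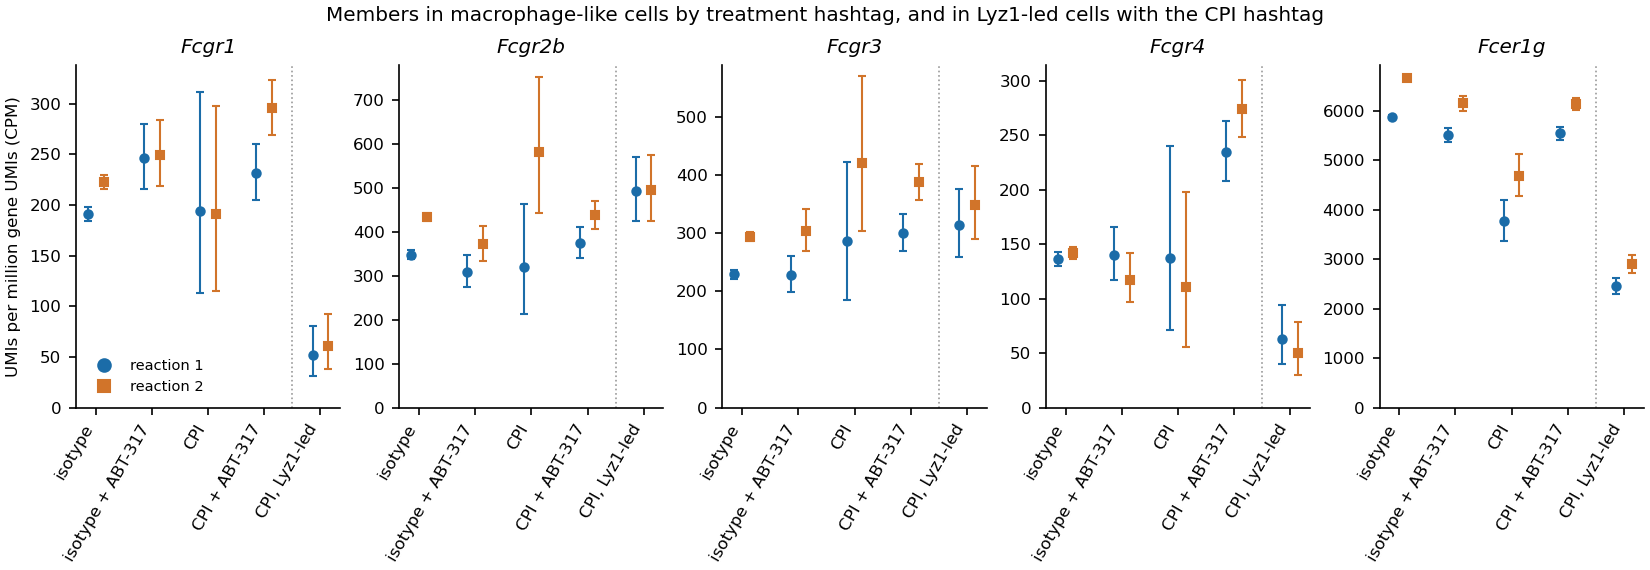
Level of each gene in CPM (linear axes from 0) in macrophage-like cells of each treatment, and right of the dotted line in Lyz1-led cells with the CPI hashtag, for reactions 1 (circles) and 2 (squares), with exact Poisson 95% intervals. Fcgr4 is highest with CPI + ABT-317 (234 and 274 CPM), Fcer1g is lower with CPI (3764 and 4686 CPM) than with the other treatments, and Fcgr1 and Fcgr4 are lowest in the Lyz1-led cells.

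ABT-317 against vehicle under isotype antibodies called 3 genes of 8824 (0.034%) and no member in edgeR. No member passed an unadjusted p of 0.05 either, a mark that 4.53% of all genes passed, and DESeq2 called 0 members and 0.181% of all genes, so with 5 members these counts of 0 do not set them apart from other genes. With the reaction as a block 145 genes (1.64%) and 0 members were called after adjustment, and 3 members had an unadjusted p under 0.05, as had 9.64% of all genes. The log2 fold changes of the members lay between -0.23 (Fcgr2b, SE 0.19) and 0.22 (Fcgr1, SE 0.15). The interaction of CPI and ABT-317, which asks whether the inhibitor's difference depends on CPI, called 26 genes (0.295%, 17 higher and 9 lower, or 12 and 10 with DESeq2's size factors) and 0 members, and 2 members had an unadjusted p under 0.05, as had 12.2% of all genes. Fcgr4 was at 1.38 (SE 0.31, adjusted p = 0.0756) and Fcer1g at 0.79 (SE 0.24, adjusted p = 0.223). With the reaction as a block both passed (adjusted p = 0.0019 and 1.53e-08, 3.59% of genes called), and DESeq2 called Fcgr4 (adjusted p = 0.0362, 1.21% of genes called). UMIs of activating receptors per Fcgr2b UMI were 1.60 and 1.52 with isotype, 1.93 and 1.24 with CPI, 1.98 and 1.80 with isotype + ABT-317, and 2.04 and 2.19 with CPI + ABT-317. The 2 CPI values spanned the isotype values, and both CPI + ABT-317 values were above the other 6. Fcgr4, itself highest with CPI + ABT-317, is part of the activating sum, so this order is no separate result. With the Lyz1-led cells added, the CPI values were 0.985 and 0.991, as a description only, since the added barcodes alone were at 0.867 and 0.927.

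Other Fc receptor genes and the signaling genes below the receptors were tested in the same fits, in which 4.50% of all genes were called in CPI against isotype and 2.19% in CPI + ABT-317 against isotype + ABT-317. Of 13 other Fc receptor genes, 4 were tested, and 1 of them, Fcrls, an Fc receptor-like gene of macrophages and microglia, fell. It stood at 165 and 194 CPM with isotype, 45.8 and 40.1 CPM with CPI (4 UMIs in each reaction), 253 and 293 CPM with isotype + ABT-317, and 69.4 and 72.3 CPM with CPI + ABT-317. The groups with CPI did not overlap those without it. Its log2 fold changes were -2.26 (SE 0.38, adjusted p = 0.0029) for CPI against isotype and -1.91 (SE 0.16, adjusted p = 1.29e-05) for CPI + ABT-317 against isotype + ABT-317. Fcgrt, the neonatal Fc receptor that recycles IgG, stood at 210.3 CPM in fibroblast-like and 42.1 CPM in macrophage-like barcodes, the reverse of the order of the 5 members. Of 15 genes of activating signaling, all tested, 1 fell in CPI against isotype, Lyn, a Src-family kinase (-0.82, SE 0.19, adjusted p = 0.024), and none passed in the other comparisons. Of 6 inhibitory genes, among them Inpp5d (the phosphatase SHIP1) and Ptpn6 (SHP-1), none passed in any comparison. The lowest adjusted p, 0.0819, was that of the adaptor gene Dok2 at 1.60 (SE 0.48) in CPI against isotype, where Inpp5d was at -0.92 (SE 0.29, adjusted p = 0.0972). In that comparison the medians were -0.10 for the activating list, -0.45 for the inhibitory list, and -0.29 for the 5 members, against -0.19 for all genes. In CPI + ABT-317 against isotype + ABT-317 they were 0.05, -0.21, and 0.29, against -0.01 for all genes.

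Isotype control antibodies took a like share of the antibody signal on macrophage-like, T-like, dendritic-like, and fibroblast-like barcodes. Fc receptors could hold the 113 other antibodies as well and so add to both counts. This share therefore cannot show whether antibody was held by Fc receptors. Per 1000 UMIs of the 113 other antibodies, the 9 controls summed to 20.6 and 20.3 UMIs in macrophage-like barcodes of reactions 1 and 2, 21.3 and 20.8 in T-like, 20.6 and 20.6 in dendritic-like, and 20.5 and 19.8 in fibroblast-like barcodes. With both reactions pooled, the range over all 18 clusters was 18.1 to 21.2. Macrophage-like barcodes thus lay below T-like barcodes and above fibroblast-like barcodes in both reactions. With both reactions pooled, each control taken alone had a ratio of macrophage-like to T-like between 0.918 (RTK4174) and 0.997 (HTK888), and MOPC-173, the mouse IgG2a, was at 0.955. These pooled ratios ranked 41 to 94 among 122 antibodies. In single reactions the ratios ran from 0.913 (RTK4174, reaction 2) to 1.01 (RTK2071 in reaction 1 and HTK888 in reaction 2). Against fibroblast-like barcodes some ratios lay above 1 in reactions 1 and 2, such as 1.09 and 1.12 for HTK888 and 1.07 and 1.09 for MOPC-173, and others below, such as 0.885 and 0.907 for MOPC-21. The CD11b antibody, picked for comparison after its values were seen, had a ratio of 5.02, the highest in the panel, and that to CD90.2, a T cell protein, had the lowest, 0.151. As plain counts, macrophage-like barcodes held a mean of 157 isotype control UMIs, against 115 on T-like barcodes, and their other antibody UMIs were higher too (7703 against 5439.5).

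On the same macrophage-like barcodes, isotype control UMIs rose with the total antibody signal far more closely than with receptor RNA. Spearman's rho between the controls and the other antibodies was 0.958 in reaction 1 (5920 barcodes) and 0.963 in reaction 2 (5577 barcodes), and with gene UMIs it was 0.472 and 0.476. With the UMIs of the members, rho was 0.153 (Fcgr1) to 0.345 (Fcer1g) in reaction 1 and 0.174 (Fcgr4) to 0.360 (Fcer1g) in reaction 2. With gene UMIs thinned to 1000 and controls per 1000 other antibody UMIs, it lay between -0.0149 and 0.0172 for all members in both reactions. The points are cells of 2 libraries and share their depth, so these are descriptions. Sparse counts also pull rho toward 0, and only 13.2% (Fcgr4) to 30.7% (Fcgr2b) of thinned barcodes had a UMI of a given receptor. The values of rho for antibodies and for receptor RNA are therefore not on an equal footing. Barcodes with a thinned Fcgr1 UMI had 20.7 and 20.3 control UMIs per 1000 in the 2 reactions, and those without one had 20.6 and 20.3. For Fcgr4 the pairs were 20.6 with and 20.6 without in reaction 1 and 20.3 with and 20.2 without in reaction 2.

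**Figure D5:**
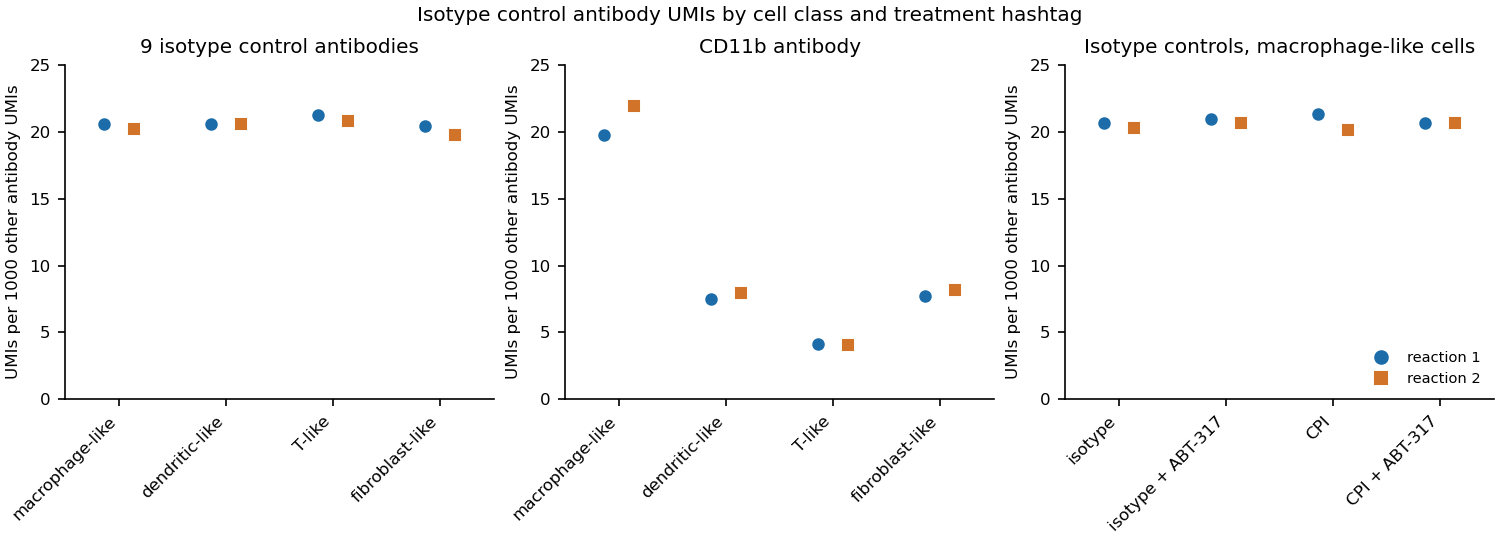
UMIs per 1000 other antibody UMIs (linear axes from 0) of the 9 isotype controls by class (left), of the CD11b antibody by class (middle), and of the isotype controls in macrophage-like cells by treatment (right), for reactions 1 (circles) and 2 (squares). The controls stay between 19.8 and 21.4 in both outer panels, whereas CD11b runs from 4.03 in T-like to 22.0 in macrophage-like barcodes.

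No difference in this signal between treatments passed the test. In macrophage-like cells the controls were at 20.7 ± 0.49 (SD, n = 4 sums) per 1000 with CPI and 20.7 ± 0.27 (n = 4) without it, a difference of 0.0529 (exact two-sided permutation test, p = 0.914). They were at 20.7 ± 0.17 with ABT-317 and 20.6 ± 0.53 without it, a difference of 0.0974 (exact p = 0.8, adjusted p = 0.914 over the 2 tests). The smallest p this design allows is 0.0286. Within a reaction, isotype + ABT-317 was above isotype in both reactions (21.0 against 20.7 and 20.6 against 20.3), and CPI + ABT-317 was below CPI in reaction 1 (20.6 against 21.4) and above it in reaction 2 (20.7 against 20.2). With the Lyz1-led cells added it was above CPI in both (20.6 against 20.4 and 20.7 against 20.3), so ABT-317 was then the higher in all 4 pairs, and no paired test was run. The paper's flow cytometry staining included an Fc receptor block. Whether Fc receptors were blocked before the staining for sequencing is not given in the sources used here, so the antibody signal says nothing about unblocked receptors.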

How the data were processed

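scRNA-Seq of 2 droplet reactions of MC38 tumors was used, and 3 lymph node samples were not analysed here. UMI counts per gene and antibody were deposited by the authors as raw matrices. The matrix headers name Cell Ranger 8.0.1 and the submitters' processing notes Cell Ranger 3.1.0 and GRCm38, and how barcodes were selected is not given in the sources used here. Barcodes with at least 200 genes and under 10% mitochondrial UMIs were clustered (scanpy 1.11.5, Leiden resolution 0.5, 50 components, 15 neighbors) without the Fc receptor genes. No doublet caller was run. Treatments came from the deposited hashtag key, by a mixture fit to each hashtag, and only barcodes with 1 hashtag entered treatment comparisons. Macrophage-like counts were summed into 8 sums (4 treatments in 2 reactions, 87400 to 16772458 UMIs) and tested with edgeR 4.0.16 (quasi-likelihood, TMM, Benjamini-Hochberg over 8824 genes, threshold 0.05), and the code was tested on simulated data. Sums of 1 reaction share a number in the labels and a droplet run. Their deviations from the group means correlated at 0.0595 to 0.432 over 6 pairs, and a fit with the reaction as a block was an alternative, as were DESeq2 1.42.0, other filters, clusterings, and left-out sums. The 5 members are named throughout, and other listed genes where called, lowest in adjusted p or compared by class. Members, lists, and tests were chosen with earlier results of these data known. No column of another series was used.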

Additional observations from a re-analysis of the deposited data

Results flagged for a closer look

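In macrophage-like cells, the isotype control signal of 1 sum lay apart from the other sums with ABT-317. The isotype + ABT-317 sum of reaction 1 had 20.9951 isotype control UMIs per 1000 other antibody UMIs, and the other 3 sums with ABT-317 lay between 20.6395 and 20.6769. Chance sets a sample apart in this way in about 1 of 20 groups.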

How the results depend on the processing

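Among 425 alternative values of the members' log2 fold changes, 356 kept direction and side of the threshold, 27 newly passed it, 10 no longer passed it, and 32 changed sign. Fcgr4 in CPI + ABT-317 against isotype + ABT-317 passed in every alternative run, at 0.82 to 1.15. In CPI against isotype, CPI + ABT-317 against CPI, isotype + ABT-317 against isotype, CPI + ABT-317 against isotype + ABT-317, and the interaction, in this order, the replicate block (the reaction as a block) gave 713, 364, 145, 608, and 317 called genes, of which 1, 2, 0, 3, and 2 were members, and it changed no other call than those given with the results. Leaving out single sums gave 109 to 463, 13 to 148, 0 to 13, 90 to 221, and 7 to 86 genes, and 0 to 1, 0 to 2, 0 to 0, 1 to 1, and 0 to 1 members. These fits leave 1 sum in an arm and assume that it varies like the other groups. DESeq2 gave 195, 16, and 107 genes in the second, the third, and the fifth comparison, with 2 members in the second and 1 in the fifth, and its size factors in edgeR gave 0 members in the second. No low-count filter gave 645, 237, 48, and 158 genes in the first, the second, the third, and the fifth, with 2 members in the second (1.12% of 21212 genes called) and 2 in the fifth (0.745%). Assigning barcodes by their leading hashtag gave 78, 10, 0, and 5 genes in the first, the second, the third, and the fifth. It called 0 members in the first (0.788% of 9896 genes called) and the second (0.101%). Leiden resolution 1.0 gave 203, 31, 0, 120, and 5 genes, with 0 members in the first (2.82% of 7189 genes called) and the second (0.431%). Clustering on 2000 variable genes gave 1973, 1262, 0, and 532 genes (22.9%, 14.6%, 0%, and 6.17% of 8626 tested, against 4.50%, 1.09%, 0.034%, and 0.295% of 8824 in the main clustering) in the first, the second, the third, and the fifth, with 3 members in each but the third. Adding the Lyz1-led cells gave 1968, 1307, and 599 genes (23.2%, 15.4%, and 7.07% of 8471) in the first, the second, and the fifth, with 3 members each, which is a description and no test, since these cells were added after their levels were seen. The 425 values counted above, and those of them that newly passed, include the fits with the Lyz1-led cells added. The cause of the changes in this section was not tested.

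No value that changed sign passed the threshold. In CPI against isotype, Fcgr2b was at -0.10 without the filter, -0.40 by leading hashtag, and -0.065 at resolution 1.0, and Fcgr3 at -0.016 by leading hashtag. In CPI + ABT-317 against CPI, Fcgr2b was at -0.066 by DESeq2, -0.070 with its size factors, -0.27 on 2000 variable genes, and -0.28 with the Lyz1-led cells. Fcgr3 was at 0.028 by leading hashtag in isotype + ABT-317 against isotype, and Fcer1g at -0.030 at resolution 1.0 in CPI + ABT-317 against isotype + ABT-317. The Fcgr2b interaction was at -0.046 on variable genes and -0.038 with the Lyz1-led cells. Over left-out sums, Fcgr2b ran from -0.57 to 0.35 and Fcgr3 from -0.15 to 0.46 in CPI against isotype, and from -0.30 to 0.63 and -0.070 to 0.56 in CPI + ABT-317 against CPI. Fcgr3 ran from -0.26 to 0.22 in isotype + ABT-317 against isotype. Fcgr1 ran from -0.083 to 0.32 and Fcer1g from -0.060 to 0.15 in CPI + ABT-317 against isotype + ABT-317, and the interaction of Fcgr2b from -0.054 to 0.86 and of Fcgr3 from -0.049 to 0.56. The isotype control difference between CPI and no CPI was -0.0194 by leading hashtag, -0.117 on variable genes, and -0.151 with the Lyz1-led cells, and that between ABT-317 and vehicle -0.00976 at resolution 1.0, 0.258 by leading hashtag, 0.253 on variable genes, and 0.293 with the Lyz1-led cells (exact permutation p = 0.114, adjusted p = 0.229). Fcgr4 stood at 159 CPM in macrophage-like cells at resolution 1.0. Isotype controls given per cell, in the main clustering, stood at 157 UMIs. The 34 and 35 barcodes of CPI limit every comparison with that group.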
